A study of Mus musculus with 10 samples.

Results

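Of 154886 regions of open chromatin found in mouse epicardial and epicardium-derived cells, 5361 appeared in both E13.5 libraries of epicardium-derived cells (EPDCs) and in no other library, which is 3.46% of all regions. They were selected on the peak lists themselves. The peaks of all 9 libraries on chromosomes 1 to 19 were pooled, overlapping peaks were joined into regions, and a region was kept when both E13.5 lists and none of the other 7 called it. The calls that chose these regions are therefore a description and carry no test. A region that a library did not call lies below the threshold of its peak caller, and such a call does not show that the chromatin was closed.

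The epicardium is the mesothelial sheet around the heart. Some of its cells lose their epithelial contacts in an epithelial-to-mesenchymal transition (EMT), invade the heart wall and become EPDCs, the source of most cardiac fibroblasts and of mural cells, the contractile cells around vessels. ATAC-seq uses a transposase that cuts and tags accessible DNA, so that promoters and distal enhancers stand out as peaks of sequenced fragments. Distal enhancers vary more between cell types and stages than promoters do, and short sequence motifs in them can be bound by transcription factors.

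All samples came from whole hearts of Rosa26tdTomato;Wt1CreERT2/+ embryos on a C57BL/6J background, in which tamoxifen given to the pregnant female marks Wt1-expressing cells and their descendants with tdTomato. EPDCs were sorted as CD31- tdTomato+ PDPN- cells at E12.5 (1 library) and E13.5 (2 libraries), and epicardial cells as CD31- tdTomato+ PDPN+ cells at E11.5 and E17.5 (3 libraries each). Per their methods, the authors count E12.5 EPDCs toward their E13.5 stage, citing very strong concordance. The rule used here keeps E12.5 apart. The labels give 4 to 13 pooled littermate hearts for an E13.5 sample, 6 for E11.5 and 4 for E17.5, with 40000 to 50000 sorted cells, so a library is a pool and not 1 animal. E13.5 sample 2 is 1 list merged from technical replicates. Labelling depends on Wt1 activity at the time of tamoxifen, and the PDPN- gate also passes tdTomato+ cells that lack PDPN for any other reason. Stage and gate both differ between the E13.5 EPDC and the epicardial libraries and cannot be told apart there.

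The sequences of 8 of these regions are given first. They were chosen because the genes or motifs described below recur in them, and they were read from GRCm38.p6, the build called mm10, on the plus strand with 100 bp on either side of the stronger E13.5 summit. Capitals mark exact matches on either strand to any of the 23 motifs searched, and the matched motifs are named in order of position.
Rfx4 member, chr10:84774730-84774930, with ETS, E-box CAGCTG and MEF2 matches: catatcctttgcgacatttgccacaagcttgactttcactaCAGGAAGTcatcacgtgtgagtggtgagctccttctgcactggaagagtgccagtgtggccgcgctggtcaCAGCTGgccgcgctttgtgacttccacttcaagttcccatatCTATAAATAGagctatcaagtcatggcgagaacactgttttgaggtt
Rbfox1 member, chr16:6962631-6962831, with MEIS, TEAD, homeobox, nuclear receptor and ETS matches: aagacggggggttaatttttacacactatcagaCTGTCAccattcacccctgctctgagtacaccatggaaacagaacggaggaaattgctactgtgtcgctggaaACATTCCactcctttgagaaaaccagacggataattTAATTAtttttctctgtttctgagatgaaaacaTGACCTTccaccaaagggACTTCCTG
Stk35 member, chr2:129815159-129815359, with MEIS, E-box CATCTG and NFI matches: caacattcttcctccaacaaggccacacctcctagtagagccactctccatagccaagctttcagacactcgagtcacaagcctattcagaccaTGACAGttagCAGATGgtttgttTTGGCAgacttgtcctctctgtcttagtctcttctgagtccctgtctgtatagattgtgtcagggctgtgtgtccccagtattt
Foxp1 member, chr6:99314863-99315063, with NFI and E-box CAGCTG matches: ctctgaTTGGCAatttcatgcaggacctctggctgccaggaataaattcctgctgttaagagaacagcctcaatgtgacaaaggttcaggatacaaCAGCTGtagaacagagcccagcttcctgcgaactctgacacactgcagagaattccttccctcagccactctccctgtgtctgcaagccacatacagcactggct
Sox9 member, chr11:113130459-113130659, with E-box CATCTG, ETS and NKX2 matches: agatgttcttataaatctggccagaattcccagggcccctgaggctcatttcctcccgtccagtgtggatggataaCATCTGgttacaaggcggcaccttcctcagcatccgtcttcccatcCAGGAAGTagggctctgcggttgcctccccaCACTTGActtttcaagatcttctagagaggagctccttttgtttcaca
Gli3 member, chr13:15325540-15325740, with an E-box CAGCTG match: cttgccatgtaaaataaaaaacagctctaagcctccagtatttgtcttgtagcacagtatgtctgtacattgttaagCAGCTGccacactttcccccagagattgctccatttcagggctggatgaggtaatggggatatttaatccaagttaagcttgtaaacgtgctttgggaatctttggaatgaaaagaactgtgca
Postn member, chr3:54310633-54310833, with MEIS and TEAD matches: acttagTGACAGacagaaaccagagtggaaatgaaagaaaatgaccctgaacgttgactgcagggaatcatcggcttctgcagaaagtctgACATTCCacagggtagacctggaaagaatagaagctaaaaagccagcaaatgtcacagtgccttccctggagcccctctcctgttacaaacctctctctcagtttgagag
Tbx20 member, chr9:24776525-24776725, with a MEIS match: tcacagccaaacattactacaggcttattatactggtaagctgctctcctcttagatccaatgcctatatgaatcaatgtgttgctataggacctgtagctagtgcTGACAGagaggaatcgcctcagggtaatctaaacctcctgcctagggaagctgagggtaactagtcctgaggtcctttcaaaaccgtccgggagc

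Each is the region with the highest lower percentile (defined below) of those whose nearest protein-coding transcription start belongs to the named gene. The Rfx4, Rbfox1, Foxp1 and Stk35 regions lie in introns of those genes, the Gli3 region 138 kb upstream and the Tbx20 region 2.32 kb upstream. The Postn region lies 50.4 kb upstream of the gene in an intron of Trpc4 and the Sox9 region 348 kb downstream of its gene. The nearest gene is a label of position, and no link between a region and that gene was measured.

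The sorted cells were first checked at the promoters of marker genes, read as peaks within 500 bp of a transcription start. The measure is the rank percentile, the place of the strongest overlapping peak among all peaks of that library by -log10 p, where 100 is the strongest. The promoter of Wt1, the lineage driver, was called in all 9 libraries at percentiles between 88.2 and 96.8. The promoter of Upk3b, which encodes an epithelial surface protein of mesothelium, ranked from 96.2 to 98.9 in the 6 epicardial libraries, at 69.9 in the E12.5 EPDC library, and at 19.7 and 41.3 in the E13.5 libraries. Postn, which encodes the matrix protein periostin of fibroblasts, had no promoter peak at E11.5, ranked between 39.1 and 45.1 at E17.5, at 67.9 at E12.5, and at 75.9 and 78.9 at E13.5. The promoter of the sort marker Pdpn was called in all 9 libraries, at 84.7 in E12.5 EPDCs, 83.7 and 84.9 in E13.5 EPDCs and 80.5 to 89.2 in epicardium, so it did not separate the gates. That of Pecam1, which encodes CD31, was called in none, nor were those of Cdh5, an endothelial cadherin, and Ptprc, the leukocyte antigen CD45. The promoter of Tnnt2, the cardiac troponin T gene, ranked at 77.1 and 80.8 at E13.5, 74.5 at E12.5, 83.0 to 87.4 at E11.5 and 54.8 to 62.0 at E17.5. That of Sox10, a neural crest factor gene, ranked at 6.80 and 32.2 at E13.5, against 2.67 to 15.3 in the other libraries. Of 21 cardiomyocyte promoters 13 and 12 were called in the E13.5 libraries, 11 at E12.5 and 13 to 19 in epicardium. Of 19 endothelial promoters 14 were called in each E13.5 library, of 16 blood and macrophage promoters 5 and 4, and of 16 neural crest and neuron promoters 13 in each. E12.5 called 15, 5 and 12 of these 3 lists, and epicardium 14 to 15, 5 to 6 and 12. Of 23 epicardial promoters 17 and 19 were called at E13.5, 20 at E12.5 and 21 to 22 in epicardium, and of 32 fibroblast promoters 31 in each EPDC library and 28 to 31 in epicardium. The part of other cells in the E13.5-only regions was not tested, and in pooled cells fewer open cells and less signal per cell cannot be told apart.

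The lists differ in depth and size, and the part of this in the selection was not tested. Fragments at each summit and the background around it were recovered from the fold and the p-value of the peak. Sample 1 at E13.5 had a genome-wide background of 4.26 fragments and sample 2 one of 10.9, against 4.19 at E12.5 and 2.07 to 4.10 in epicardium. A call over that background took at least 13 fragments in sample 1, 24 in sample 2 and 13 at E12.5. The lists held 84557 and 103205 peaks at E13.5, 78172 at E12.5 and 73606 to 106836 in epicardium. The 3 EPDC lists also held 61 to 87 peaks on the mitochondrial genome and unplaced scaffolds, where the epicardial lists held 0, so the deposited lists of the sorts differ in content outside the main chromosomes.

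The E13.5 pair shared more regions to the exclusion of all other libraries than any other pair counted, within EPDCs or within an epicardial stage. Pairs across the epicardial stages were not counted. E12.5 shared 86 regions with E13.5 sample 1 alone and 654 with E13.5 sample 2 alone. Pairs of E11.5 libraries shared 896 to 3230 regions alone, and pairs of E17.5 libraries 122 to 2745. Such a pair also excludes regions called by the remaining library of its stage. E13.5 had no further library, so these counts are not like for like. E13.5 sample 1 called 825 regions by itself and E13.5 sample 2 called 7342, more than any other library. A further 5014 regions were called by all 3 EPDC libraries and by no epicardial library, and 44013 by all 9 libraries. These sets serve below as comparisons, called the EPDC-wide and the shared regions.

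**Figure D1:**
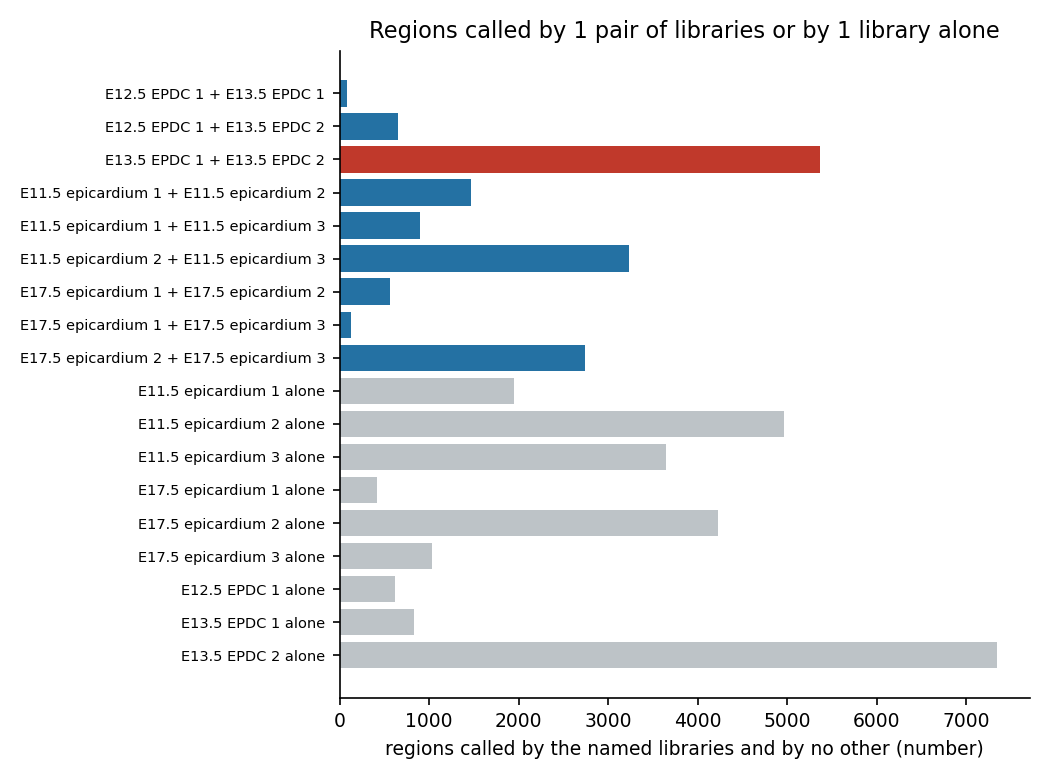
Number of regions (horizontal axis) called by 1 pair of libraries and by no other (red for the E13.5 pair, blue for other pairs of EPDC, E11.5 or E17.5 libraries), or by 1 library alone (grey). The E13.5 pair has 5361 regions, the next pair 3230, and E13.5 sample 2 alone 7342. Pairs at E11.5 or E17.5 also leave out regions called by the remaining library of their stage, and E13.5 has no such library.

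The E13.5-only regions were narrow and weak within their own lists. Their median width was 461 bp, against 622 bp for EPDC-wide and 1046 bp for shared regions. The median rank percentile was 16.3 in sample 1 of E13.5 and 28.5 in sample 2. EPDC-wide regions had medians of 41.6 and 50.9 in the same libraries, and shared regions 70.8 and 76.5. At the summit of an E13.5-only region a median of 23 fragments was piled up in sample 1 and 57 in sample 2, with a fold enrichment over local background of 3.99 and 4.12. Above percentile 50 stood 152 regions in sample 1, 518 in sample 2 and 127 (2.37%) in both, while 489 lay below percentile 10 in both.

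**Figure D2:**
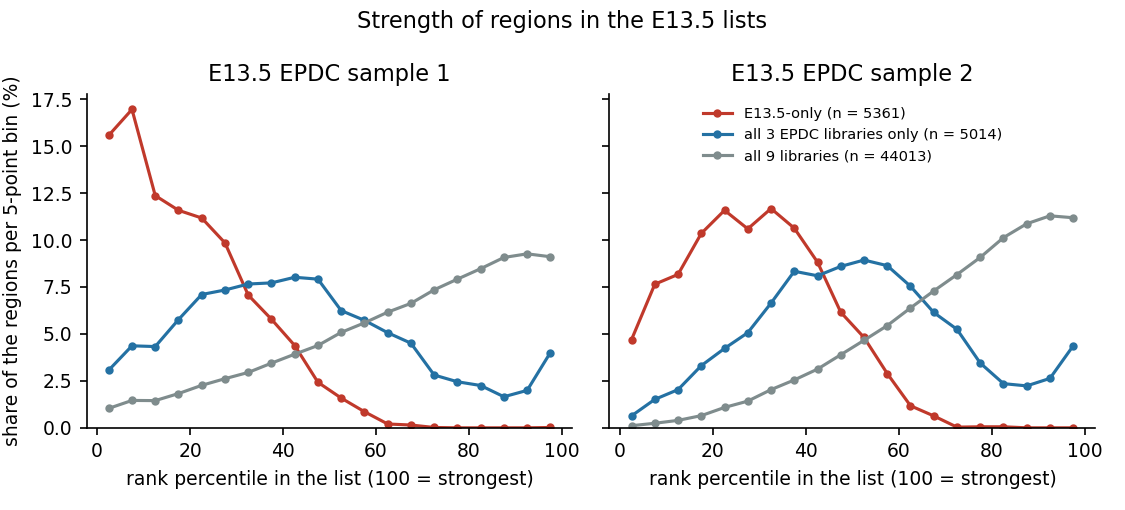
Share of regions (vertical axis, %) in each 5-point bin of rank percentile (horizontal axis) in E13.5 EPDC samples 1 and 2, for the 5361 E13.5-only (red), 5014 EPDC-wide (blue) and 44013 shared regions (grey). E13.5-only regions gather at low percentiles in both lists, with medians of 16.3 and 28.5.

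Both E13.5 lists had to overlap in a region for it to be kept, so some nearness of their summits is built in. The strongest summits of both libraries were a median of 27 bp apart and within 100 bp in 86.03% of regions, against 17 bp and 91.9% for EPDC-wide and 14 bp and 92.5% for shared regions. Across the 5361 regions, which share 2 libraries and are no replicates of a condition, Spearman's rho between the percentiles in samples 1 and 2 was 0.683 and Pearson's r 0.708. The same measures were 0.899 and 0.913 over EPDC-wide and 0.976 and 0.959 over shared regions. Each set spans another range of percentiles, which alone moves these values, with quartiles of 7.84 and 28.9 in sample 1 for E13.5-only and of 49.6 and 86.4 for shared regions. The percentile was higher in sample 2 for 80.5% of them, as for 85.7% of shared regions. In the weakest of 3 groups of similar size, ordered by the lower of both percentiles, 72.2% of summit pairs lay within 100 bp, in the middle group 89.9% and in the strongest 97.1%.

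The count depended most on the E12.5 and E13.5 libraries. Without E12.5, 10379 regions met the rule, and without any single epicardial library between 5466 and 5764 did. With E13.5 sample 2 as the lone E13.5 library it was 12721 regions, and with sample 1 alone 6554. When regions called by both E13.5 libraries were ordered by their percentile in sample 1, the E12.5 library called fewer of the weak ones, whether or not the epicardium called them. Of regions that all 6 epicardial libraries called, E12.5 called 70.2% of 1563 up to percentile 10, 85.6% of 2508 between percentiles 20 and 30, and 99.6% of 32992 above 50. Of regions called by no epicardial library it called 17.6% of 2117, 39.1% of 1851 and 92.4% of 1993 in the same bins, and the uncalled remainder is the E13.5-only set. Below percentile 30, which holds 4155 of the 5361, the E12.5 library called 79.9% of the 5864 regions on which all other 8 libraries coincided. E17.5 replicate 1, the library of lowest background, called 87.2% of its corresponding 5376, and the other epicardial libraries called 95.7% to 99.1% of theirs.

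**Figure D3:**
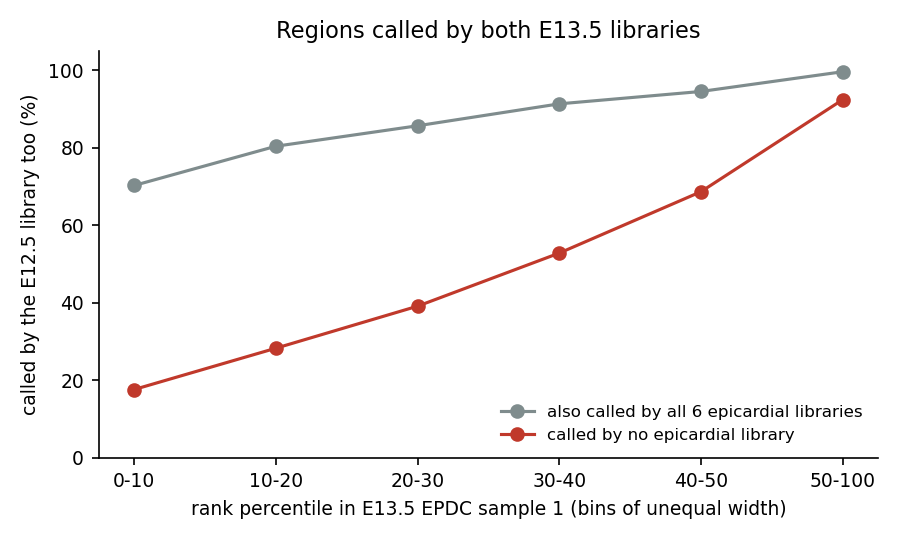
Share of regions called by both E13.5 libraries that the E12.5 EPDC library called too (vertical axis, %), by rank percentile in E13.5 sample 1 (horizontal axis, bins of unequal width), for regions also called by all 6 epicardial libraries (grey) and by none (red). The grey line rises from 70.2% to 99.6% and the red line from 17.6% to 92.4%, and the uncalled part of the red line is the E13.5-only set.

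The regions lay far from genes' starts. Of the 5361, 54 (1.01%) lay within 500 bp of a protein-coding transcription start, with a 95% Wilson interval of 0.773% to 1.31% that covers counting error only. Without the E12.5 library as a criterion the share was 4.03%. The share was 7.26% for EPDC-wide, 28.4% for shared and 9.64% for all regions. The median distance to a start was 47.2 kb, against 37.2 kb for EPDC-wide and 12.4 kb for shared regions, and 83.7% of E13.5-only regions lay beyond 10 kb. By their summits, 50.3% were intronic, 44.1% intergenic, 1.75% in coding exons and 1.68% in untranslated exons. Their sequence held a median of 46.2% G and C within 150 bp of the summit, against 53.5% in shared regions, and 3.41% consisted mostly of repeats, against 3.17% of all regions. The nearest peak of any other library was a median of 3.90 kb away, and 330 regions had one within 500 bp. Per chromosome the share of regions that were E13.5-only ranged from 2.83% on chromosome 7 to 4.09% on chromosome 18. No test was run on these shares, because regions are not replicates and the libraries that chose them are the ones compared.

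The strongest regions were few. Rank 1 by the lower of both percentiles was a region at chr13:13860702-13861145, 76.6 kb downstream of Gng4, which encodes a G-protein gamma subunit. It ranked at 72.7 in sample 1 with 81 fragments and at 83.4 in sample 2 with 248 fragments, and 79.1% of its window was repeat sequence. The next, at chr8:70752449-70753628 and 1.34 kb upstream of Rab3a, a small GTPase of vesicle secretion, ranked at 68.6 and 69.8 but with folds of only 4.46 and 3.75 over a high local background. It lay 0.753 kb from a peak of another library.

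The region in an intron of Rfx4, a winged-helix transcription factor gene, lay at chr10:84774505-84775258 with 13.6 kb to any peak of another library. It ranked at 67.9 with 70 fragments and a fold of 13.51 in sample 1, and at 79.9 with 215 fragments and a fold of 16.7 in sample 2. The region of Plek, which encodes the platelet and leukocyte protein pleckstrin, stood in an exon of a non-coding transcript at chr11:17021623-17022376, ranked at 66.4 and 75.0, and had no other peak within 29.2 kb. An intergenic region 116 kb from Egln3, which encodes an oxygen-sensing prolyl hydroxylase, ranked at 66.4 and 74.4. Intronic regions of Esrrg, an orphan nuclear receptor gene, and of Galntl6 each ranked at 65.4 in sample 1, and at 65.4 and 65.9 in sample 2. In the intron of Stk35, a kinase gene, 71 and 279 fragments gave percentiles of 65.1 and 81.4. The remaining regions of the first 12 lay near Hist1h2bq, Rbfox1, Ttc7b and Maml3, with percentiles of 60.6 to 64.9 in sample 1 and 64.8 to 70.0 in sample 2. In this order they lay 6.20, 0.357, 8.70 and 1.02 kb from a peak of another library. The Maml3 region had folds of only 4.37 and 4.33. These ranks are the values by which the 12 were chosen. Only 17 of the 5361 regions had a fold above 10 in both libraries.

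At the other end of the rule stood regions that barely passed in 1 library. A region near Cryba4 had a -log10 q of 2.01 in sample 1 and 3.35 in sample 2, and a region in an intron of Jag1 had 2.38 and 2.01. Just outside the rule, a region near Nr4a1 at percentiles 47.0 and 59.1 in the E13.5 lists was barred by an E12.5 peak with a -log10 q of 2.00, and regions near Cdh17 and Zmat3 by peaks of E17.5 replicate 1 at 2.00 and 2.01. A region near Srsf1 was barred by an overlap of 1 bp. The largest discordance between the E13.5 libraries was a region near 2610044O15Rik8, at chr8:129300564-129301212, with a percentile of 96.0 and a fold of 38.0 in sample 1 but 1.63 and 2.00 in sample 2. Its fragments in sample 1 could not be solved, so medians of fragments there rest on 5360 regions.

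The strongest of the 54 promoter regions ranked near the middle of the E13.5 lists. The first lay 31 bp from the start of Rps14, a ribosomal protein gene, at chr18:60746785-60747359 and inside Ndst1, with percentiles of 51.8 and 58.7. That of 1700034J05Rik ranked at 41.1 and 53.4, and that of C1qtnf2, a secreted relative of adiponectin, at 40.7 and 51.2. Toporsl ranked at 50.5 and 39.9, and Clps, the pancreatic colipase gene, at 39.5 and 52.4. Hephl1 reached 38.9 and 50.9, and of the phospholipase genes Pla2g6 reached 35.3 and 38.9 and Pla2g2e 33.6 and 39.0. All 8 stayed below percentile 60 in both libraries, and 5 lay within 1 kb of a peak of another library.

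The regions spread over 3357 nearest genes, 2229 of which had 1 region, 475 at least 3 and 98 at least 5. Because long intergenic spaces collect more peaks, each count is given beside all regions nearest to that gene, beside an overall E13.5-only share of 3.46%. Auts2, a chromatin regulator gene of neural development, had 11 of 167 (6.59%), Rasgef1b 10 of 84 (11.9%) and Adgrl2, an adhesion receptor gene, 10 of 121 (8.26%).

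Sox9, a transcription factor of chondrogenic and valve mesenchyme, had 10 of 104 (9.62%) and no EPDC-wide region, 16.7 to 684 kb from its start. They ranked between 2.40 and 41.6 in sample 1 and between 18.8 and 53.3 in sample 2, and 3 of them held an ETS motif, among them the sequence given above. Foxp1, a forkhead repressor gene, had 9 of 112 (8.04%), 2.84 to 61.4 kb from a start. Its strongest region, printed above, ranked at 59.4 with 55 fragments and at 65.1 with 127 fragments. Gli3, the Hedgehog effector gene, had 8 of 55 (14.5%), with 1 EPDC-wide region, and percentiles of 3.98 to 49.6 and 21.2 to 55.1.

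Piezo2, which encodes a mechanically gated ion channel, had 8 of 42 (19.05%) and no EPDC-wide region, with percentiles of 2.40 to 29.6 in sample 1 and 21.4 to 51.8 in sample 2. Rbfox1, a splicing regulator gene, had 8 of 113, Trib2, a pseudokinase gene, 8 of 85, and Zfp608 8 of 148 beside 9 EPDC-wide regions. Tbx20, a cardiac T-box factor gene, had 8 of 40 (20%) and 1 EPDC-wide region. The strongest of these, 2.32 kb upstream, held 135 and 337 fragments but a fold of 2.49 and 2.06, since the local background was high. The others ranked between 0.115 and 26.1 in sample 1, and 3 of them lay below percentile 1.

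Of the genes with 8 or more regions, Tbx20 and Piezo2 also held leading windows when regions were counted per 100 kb. Of 20389 windows that held any region, 4393 held an E13.5-only region, 153 held at least 3 and 5 held at least 5. The window chr9:24700001-24800000 held 7 of its 22 regions, 6 nearest to Tbx20 and 1 to Dpy19l2. The window chr17:79700001-79800000 held 6 of 27, between Cyp1b1, a retinoid and steroid metabolizing cytochrome gene, and Atl2, with percentiles of 3.20 to 32.1 in sample 1. The window chr18:63100001-63200000 held 6 of 13, all nearest to Piezo2, and no region there was called by all 9 libraries. Over the whole set, the median distance between an E13.5-only region and the nearest other one was 96.3 kb, and 10.4% had another within 10 kb.

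Lists of genes by role give the count of E13.5-only regions among all regions nearest to them. The lists were chosen with earlier results of these data known, overlap in places, and were not tested. Among 14 genes of valve mesenchyme, 28 of 346 regions (8.09%) were E13.5-only, of which Sox9, Tbx20 and Postn held 22. Among 33 genes of fibroblasts and matrix it was 38 of 628 (6.05%), spread over 19 genes. Tnc, which encodes the matrix glycoprotein tenascin C, had 5 of 46, Postn 4 of 21 and Fn1, the fibronectin gene, 3 of 47. The strongest Tnc region lay 446 kb upstream and ranked at 51.5 in sample 1 and 54.8 in sample 2. The 4 Postn regions lay 42.7 to 157 kb from the start, ranked at 5.83 to 36.0 in sample 1 and 25.8 to 41.8 in sample 2, and had no other library's peak within 6.67 kb. Among 18 genes of EMT factors it was 27 of 488 (5.53%), led by Sox9 with 10, Zeb2 with 6 of 93 and Zeb1 with 2 of 31. Zeb1 and Zeb2 encode repressors of epithelial genes.

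For 23 genes of the epicardium the share was 11 of 427 (2.58%), under the 3.46% of all regions, with 4 near Tbx18 and 3 near Bnc2. Among 19 endothelial genes it was 7 of 348 (2.01%), among 19 mural genes 9 of 250 (3.6%), and among 21 cardiomyocyte genes 9 of 218 (4.13%), 5 of these near Ryr2, the cardiac calcium release channel gene. The mural regions included 2 of 8 near Rgs5, a pericyte marker gene, at percentiles of 19.2 and 29.6 in sample 1 and 31.6 and 44.7 in sample 2, and 2 of 38 near Myocd, the coactivator gene of smooth muscle transcription. Among 17 blood and macrophage genes it was 7 of 155 (4.52%), of which 4 lay 145 to 605 kb from Ptprc, whose promoter had no peak. Among 17 genes of neural crest and neurons it was 7 of 146 (4.79%), 2 near Elavl4. All of these lists but the epicardial one rested on under 10 regions.

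Among signalling genes, ligands, receptors and targets of the PDGF and FGF pathways had 29 of 540 (5.37%). They included the FGF-responsive ETS factors Etv1 with 5 of 26 and Etv5 with 3 of 23, and the feedback inhibitor gene Spry2 with 5 of 47. Guidance genes had 61 of 1408 (4.33%), from the ephrin ligand Efna5 with 7 of 150, the semaphorin receptor Nrp2 with 6 of 80 and the Slit receptor Robo1 with 6 of 79. Notch genes had 13 of 358 (3.63%), with 3 near Notch2 and 3 near its nuclear effector Rbpj. Wnt genes had 30 of 887 (3.38%), with 3 each near Wnt5a and Wnt5b. Genes of the TGF-beta and BMP pathways had 25 of 941 (2.66%), of which the effector Smad3 held 5 of 58 and the ligand Tgfb2 and receptor Tgfbr2 3 each. EPDC-wide regions made up 2.60% of the valve, 2.87% of the fibroblast and 2.96% of the PDGF and FGF regions, against 3.24% of all regions. They made up 3.69% of the EMT factor, 3.98% of the guidance and 4.79% of the neural crest and neuron regions.

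Sequence motifs were searched as exact letters on both strands within 150 bp of the strongest summit of each region. GC content and distance from genes differ between the sets, so shares are also given for regions beyond 10 kb from a start. The ETS motif (CAGGAAGT) was found in 389 E13.5-only regions (7.26%), close to the 7.48% of EPDC-wide regions and above the 3.75% of shared and 4.04% of all regions. Beyond 10 kb it was 7.31%, 7.31%, 4.22% and 4.18% in this order. ETS factors include effectors of FGF signalling and endothelial regulators. The nearest match lay within 50 bp of the summit in 52.4% of the E13.5-only regions that held it, in 51.2% of such EPDC-wide and in 40.2% of such shared regions. The SOX motif (ACAATGG) stood in 4.33% of E13.5-only, 3.73% of EPDC-wide, 2.21% of shared and 2.95% of all regions. Beyond 10 kb it was 4.32%, 3.95%, 2.61% and 3.15%. It lay within 50 bp of the summit in 32.8% of the E13.5-only regions with a match, in 39.0% of such EPDC-wide and in 29.9% of such shared regions.

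The MEF2 motif was found in 1.68% of E13.5-only and 0.858% of EPDC-wide regions, against 1.03% of shared and 1.07% of all. The CArG box, bound by serum response factor at contractile genes, was found in 2.42% of E13.5-only and 1.60% of EPDC-wide regions, with 1.42% of shared and 1.53% of all. These are 90 and 130 regions, and over all settings the shares ranged from 1.29% to 1.79% and from 1.81% to 2.55%. Beyond 10 kb MEF2 stood in 1.83% of E13.5-only, 1.01% of EPDC-wide and 1.41% of shared regions, and the CArG box in 2.43%, 1.67% and 1.62%. NKX2 (CACTTGA) stood in 4.22% of E13.5-only and 4.05% of EPDC-wide regions, and beyond 10 kb in 4.30% and 4.34%. The NFI half-site (TTGGCA) stood in 23.2% of E13.5-only and 17.4% of EPDC-wide regions, and the homeobox core (TAATTA) in 5.52% and 3.65%. In all regions these shares were 20.4% and 5.53%. Beyond 10 kb NFI stood in 24.0% of E13.5-only, 18.5% of EPDC-wide and 22.0% of all regions, and the homeobox core in 5.73%, 3.87% and 6.31%.

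The E-box CAGCTG, of the kind that basic helix-loop-helix factors bind, stood in 30.5% of E13.5-only, 30.9% of EPDC-wide, 26.2% of shared and 25.3% of all regions. The E-box CATCTG stood in 29.8%, 27.8%, 20.7% and 24.7%, and the short MEIS core (CTGTCA) in 32.8%, 33.2%, 23.6% and 26.6% in the same order. Beyond 10 kb from a start the differences from shared and all regions were smaller, while those from EPDC-wide regions grew for CAGCTG and MEIS. There CAGCTG stood in 30.8% of E13.5-only, 31.6% of EPDC-wide, 29.96% of shared and 26.1% of all regions. CATCTG then stood in 29.9%, 29.2%, 26.2% and 26.6%, and MEIS in 32.7%, 34.5%, 28.2% and 28.4%.

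The E-box CACCTG, which SNAI and ZEB repressors bind, stood in 8.32% of E13.5-only and 6.44% of EPDC-wide regions, below the 14.9% of shared and 15.3% of all regions. Beyond 10 kb it was 8.02%, 6.12%, 13.3% and 14.3%. The motif AGATAA of GATA factors was at 23.0% of E13.5-only and 21.8% of all regions, and beyond 10 kb the order turned, with 23.4% and 24.6%.

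AP-1 (TGACTCA) stood in 9.33% of E13.5-only and 7.0% of EPDC-wide regions, below the 13.6% of shared and 14.9% of all regions. Beyond 10 kb from a start these shares were 9.45%, 7.23%, 17.9% and 16.0%. TEAD (ACATTCC), the partner of YAP, stood in 7.76% and 6.64%, against 8.49% of shared and 9.38% of all, and beyond 10 kb in 7.82%, 7.15%, 11.4% and 10.4%. The motif of WT1 itself was found in 21 E13.5-only regions (0.392%), 1.02% of EPDC-wide, 3.35% of shared and 1.42% of all regions. KLF/SP (GGGGCGGGG) was found in 0.914% of E13.5-only, 2.69% of EPDC-wide, 8.91% of shared and 3.51% of all regions, and beyond 10 kb in 0.825%, 1.19%, 2.75% and 1.44%. CTCF (CAGGGGGCG) was found in 0.112%, 0.399%, 1.89% and 0.906%, and beyond 10 kb in 0.0669%, 0.212%, 0.900% and 0.519%. These 3 patterns are rich in G and C. Of the shared regions with a WT1 match 43.5% also held KLF/SP, against 3 of the 21 such E13.5-only regions (14.3%). The CTCF share of E13.5-only regions rests on 6 regions. Without the E12.5 library as a criterion, the WT1 share of the resulting set was 0.713%, the KLF/SP share 1.78% and the CTCF share 0.231%. Beyond 10 kb the WT1 share was 0.423% in E13.5-only, 0.530% in EPDC-wide, 1.35% in shared and 0.736% in all regions. None of the 23 motifs was found in 8.93% of E13.5-only regions. Motif matches describe letters and do not show binding.

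**Figure D4:**
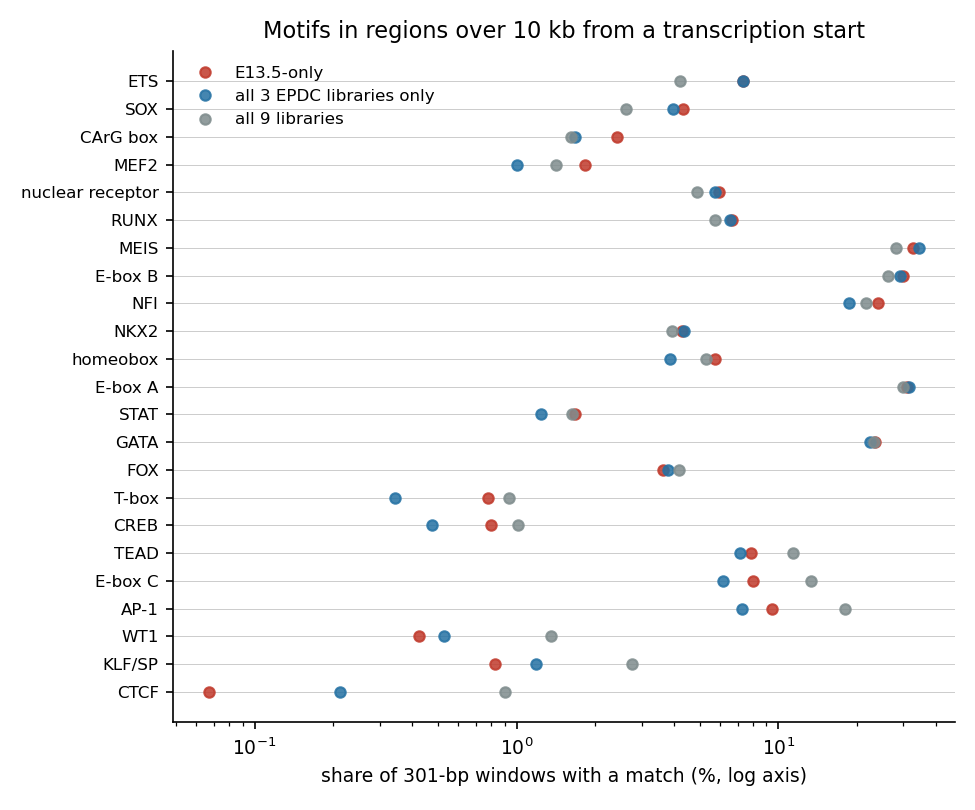
Share of windows (150 bp on either side of the summit) with at least 1 match (horizontal log axis, %) for 23 motifs in E13.5-only (red), EPDC-wide (blue) and shared regions (grey) over 10 kb from a start, where E-box A, B and C are the 3 E-boxes in the order of the text. Motifs are ordered by the ratio of red to grey, from ETS (7.31% and 4.22%) to CTCF (0.0669% and 0.900%).

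The weak and the strong members of the set were compared by the same measures. From the weakest to the strongest of the 3 groups, the ETS share was 6.38%, 7.33% and 8.11%, the MEIS share 30.9%, 31.5% and 36.0%, and the CAGCTG share 28.1%, 29.9% and 33.6%. GATA took the opposite order, with 25.0%, 23.4% and 20.4%. MEF2 was at 1.79%, 1.91% and 1.34%. Median distances to a start were 46.2, 51.3 and 44.2 kb, and promoter regions numbered 25, 14 and 15. Distance from genes thus followed no order of strength, while ETS and MEIS shares were highest in the strongest group.

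Accessibility around the same genes was then read from regions that the rule did not use, the 44013 regions called by all 9 libraries. The percentile among these regions was fitted with limma over the 4 groups (n = 2 E13.5, 1 E12.5, 3 E11.5 and 3 E17.5 libraries), with p-values adjusted over all regions. Against the mean of both epicardial stages, 10696 regions (24.3%) were higher and 10991 (25.0%) lower at E13.5 at an adjusted p below 0.05. Against E12.5, where the lone library is assumed to vary like the others, 386 (0.877%) were higher and 624 (1.42%) lower. With ranks of fold enrichment in place of -log10 p the balance turned, to 974 higher and 427 lower, so directions against E12.5 depend on the measure. The calls against E12.5 numbered 1010 in all, 377 without E13.5 sample 2, 463 without E13.5 sample 1 and 431 with a replicate block. These regions come from the same libraries, so they are other positions but not other samples.

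Promoters were counted by the number of E13.5-only regions nearest to their gene. Of 10470 shared promoters of genes with no such region, 13.4% were higher and 15.3% lower. For genes with 1 region it was 18.6% and 13.2% of 1877, with 2 regions 23.6% and 12.3% of 640, with 3 or 4 regions 28.7% and 12.2% of 436, and with 5 or more 28.1% and 7.91% of 139. All shared promoters gave 15.2% and 14.7%. Against E12.5 the corresponding share of higher promoters was 0.229% without and 0.226% with any E13.5-only region, with 7 of 3092 promoters called higher and 19 lower, by limma. The difference between promoter classes was not tested. The classes were not matched for the number of all regions nearest to a gene, and the part of that number was not tested.

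**Figure D5:**
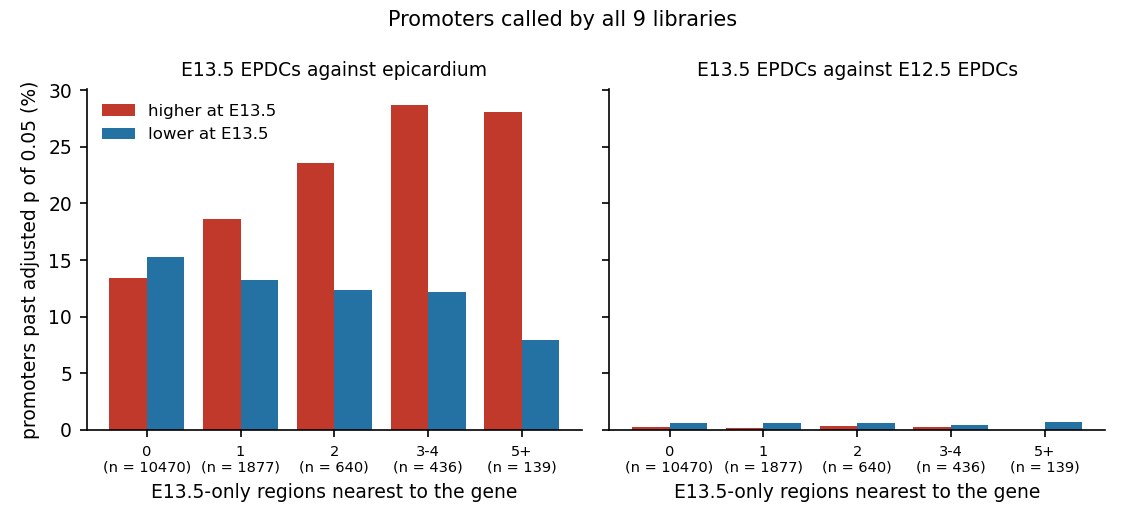
Share of promoters called by all 9 libraries (vertical axis, %) that were higher (red) or lower (blue) in E13.5 EPDCs at a limma adjusted p below 0.05, by the number of E13.5-only regions nearest to the gene (horizontal axis, with the number of promoters), against epicardium (left) and E12.5 EPDCs (right). Against epicardium the red bars go from 13.4% to 28.1%, and against E12.5 all bars are under 1%.

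Shared regions beyond 10 kb from a start were counted in the same way. Where the nearest gene had no E13.5-only region, 26.0% of 11207 were higher and 31.1% lower than in epicardium. With 1 or 2 such regions it was 31.6% and 28.7% of 8636, and with 3 or 4 it was 36.5% and 25.0% of 2649. Where it had 5 or more, 39.5% of 1067 were higher and 23.1% lower, against 29.9% and 29.2% of all 23559 distal shared regions. The difference between these classes was not tested, and they too were not matched for the number of all regions nearest to a gene.

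Of the 21 genes with the most or the strongest E13.5-only regions, 19 had a promoter called by all 9 libraries, 25 promoters in all. Against epicardium 11 of the 25 were higher, 1 was lower and 13 did not pass. Of all shared promoters 15.2% were higher and 14.7% lower, and of those of genes with any E13.5-only region 21.5% and 12.6%. No promoter passed for 10 of the 19 genes, Sox9, Adgrl2, Rbfox1, Zfp608, Gng4, Rab3a, Egln3, Galntl6, Ttc7b and Maml3. The promoter of Piezo2 ranked among shared regions at 86.4 and 85.6 in the E13.5 libraries, at 81.0 at E12.5, at 74.5, 76.1 and 76.1 at E11.5, and at 72.7, 70.4 and 63.0 at E17.5. Both E13.5 values lay above all epicardial ones. The difference to epicardium was 13.9 points (SE 2.71, limma adjusted p = 0.000689), and that to E12.5 was 5.05 points (SE 4.06, adjusted p = 0.618). The Plek promoter ranked at 83.0 and 79.0 at E13.5, 85.0 at E12.5 and 55.2 to 73.0 in epicardium, which is 17.8 points above epicardium (SE 3.63, adjusted p = 0.000978). One Rasgef1b promoter ranked at 71.9 and 74.3 at E13.5, 70.8 at E12.5 and 46.0 to 57.1 in epicardium, 22.5 points higher (SE 4.37, adjusted p = 0.000689). The other Rasgef1b promoter, at 77.0 and 82.8 at E13.5 and 76.9 to 91.0 in epicardium, did not pass (-3.08 points, SE 2.18, adjusted p = 0.262).

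The promoter of Gli3 ranked at 92.3 and 90.4 at E13.5 and at 95.1 at E12.5, with epicardial values of 83.6 to 92.3. It was 4.85 points above epicardium (SE 1.55, limma adjusted p = 0.0184), although 1 E11.5 library lay between the E13.5 values. Both Auts2 promoters passed as higher than epicardium, by 13.7 points (SE 4.30, adjusted p = 0.0168) and 23.6 points (SE 3.92, adjusted p = 0.000189). All 3 Foxp1 promoters did so too, by 9.23 points (adjusted p = 0.0462), 19.02 points (adjusted p = 0.00179) and 11.2 points (adjusted p = 0.0292). With a replicate block the first Auts2 and the first Foxp1 promoter did not pass (adjusted p = 0.0567 and 0.146). The stronger of the Sox9 promoter regions ranked at 75.1 and 76.5 at E13.5, 76.9 at E12.5 and 61.8 to 77.3 in epicardium, and its difference of 5.03 points did not pass (SE 3.44, adjusted p = 0.246). Trib2 went the other way. Its promoter ranked at 81.5 and 85.8 at E13.5, below all 6 epicardial values of 88.9 to 95.9, and fell by 7.77 points (SE 1.46, adjusted p = 0.000505). Against E12.5, no promoter of these 19 genes passed the threshold, and the smallest adjusted p was 0.0938, for Trib2. With 1 library at E12.5 this does not show that the promoters were alike at both stages.

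Of 41 promoters of 33 genes named from the lists, 10 were higher than in epicardium, 4 were lower and 27 did not pass. Among all shared promoters 15.2% were higher and 14.7% lower, and among those of genes with any E13.5-only region 21.5% and 12.6%. With a replicate block the Efna5 promoter and a Rbpj promoter no longer passed as higher (limma adjusted p = 0.0678 and 0.118). The Tnc promoter ranked at 90.9 and 91.9 at E13.5, above its epicardial range of 81.1 to 86.3 (6.93 points, SE 1.44, limma adjusted p = 0.00115). The Myocd promoter ranked at 71.7 and 74.8, against 29.0 to 58.2 in epicardium (29.2 points, SE 6.49, adjusted p = 0.00186), and that of Robo1 at 85.5 and 90.9, against 71.2 to 84.0 (11.4 points, SE 2.35, adjusted p = 0.00104). Among genes listed for other cell types, 1 of 2 Myl3 promoter regions, of a cardiomyocyte myosin light chain, and the Egfl7 promoter passed as higher. That of Myl3 ranked at 58.6 and 53.7 at E13.5, 4.32 to 10.7 at E11.5 and 60.3 to 69.5 at E17.5 (20.4 points, SE 4.52, limma adjusted p = 0.00179), and so stood below all E17.5 values. The promoter of Egfl7, an endothelial secreted factor, ranked at 83.2 in both E13.5 libraries and at 61.3 to 78.1 in epicardium (10.6 points, SE 2.89, limma adjusted p = 0.00752). The Tbx20 promoter ranked at 94.9 and 94.5 within a range of 86.4 to 95.8 in epicardium, and did not pass (3.15 points, SE 1.44, adjusted p = 0.0858). The largest fall was at 1 of 2 Wnt5b promoter regions, which ranked at 4.44 and 2.22 at E13.5, 9.74 at E12.5 and 29.7 to 65.4 in epicardium (-46.9 points, SE 5.32, limma adjusted p = 6.57e-06). The Zeb1 promoter ranked at 31.7 and 27.4 at E13.5, 36.4 at E12.5 and 23.5 to 69.3 in epicardium, and fell by 22.4 points (SE 5.98, adjusted p = 0.00652), although 1 E11.5 library lay below both E13.5 values. Nrp2 fell by 8.79 points (SE 2.00, adjusted p = 0.00224), and 1 of 2 Zeb2 promoter regions fell by 37.5 points (SE 4.23, adjusted p = 6.3e-06), with 30.9 and 29.0 at E13.5, 47.0 at E12.5 and 54.6 to 77.2 in epicardium. The other Zeb2 region ranked at 46.1 and 49.4 at E13.5, above its epicardial range of 24.4 to 45.3. It did not pass (11.1 points, SE 4.72, limma adjusted p = 0.0661). Genes next to E13.5-only regions thus included promoters that ranked higher and others that ranked lower than in epicardium.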

How the data were processed

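Peak lists of bulk ATAC-seq from 9 libraries were analysed, 10 samples in all, since the technical replicates of E13.5 sample 2 share 1 list. Per the methods and labels, the authors ran the nf-core atacseq pipeline with mm10 as genome and called the peaks of each library by MACS2 2.2.9.1 in paired mode, keeping those under a q-value of 0.01. The deposited lists give a fold enrichment (ratio over local background) and the -log10 of p- and q-values, which the authors' peak caller computed. Duplicate, multimapped, blacklisted and mitochondrial reads were to be removed first, although the EPDC lists hold some mitochondrial or scaffold peaks. No value was normalised between libraries, and the reads were not used.

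Intervals listed more than once were reduced to their strongest summit, and chromosomes 1 to 19 were kept. Overlaps of 1 bp joined intervals. Fragments were solved from fold and -log10 p, which held for 84.8% to 98.0% of peaks per library. Regions were placed by their strongest summit, on GENCODE M21 genes and GRCm38.p6 sequence, which is the build of mm10. Percentiles of shared regions were fitted with limma 3.58.1 (trend) in R 4.3.3 with Benjamini-Hochberg adjustment, and other steps ran in Python 3.11.15. Merging, motif search and the fit were tested on simulated data. Replicates are separate pools of hearts. Named genes were the 10 with most regions, the 12 strongest regions, the 8 strongest promoter regions, up to 3 genes per list, 3 windows, and regions at the edges of the rule. The members, gene lists and motifs were chosen with earlier results of these data known. Alternatives were stricter q-values, equal peak numbers, other joins, summit agreement, distance from other peaks, chromosome X, each library left out, other scales and a replicate block. One region at the edge of the rule is not reported here.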

Additional observations from a re-analysis of the deposited data

Results flagged for a closer look

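On chromosomes left out of the count, 136 of 3585 regions on chromosome X (3.79%) were called by both E13.5 EPDC libraries and by no other, close to the 3.46% of chromosomes 1 to 19. On chromosome Y it was 16 of 67 (23.9%), beside 28 regions called by all 3 EPDC libraries alone and 2 called by all 9. On the mitochondrial genome and unplaced scaffolds it was 12 of 87 (13.8%), beside 52 called by all 3 EPDC libraries. The epicardial lists hold 0 peaks on the latter, so no control level exists there. These values were singled out because they lie in data outside the comparisons above.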

How the results depend on the processing

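The count of 5361 E13.5-only regions was 3407 when each list was reduced to the same number of top peaks, 2266 of them identical to a region of the set. A -log10 q of at least 5 in every list gave 5574 regions (3770 identical), and the same threshold in both E13.5 lists alone gave 3773. Other rules of joining or placing peaks gave 4612 to 5490, and adding chromosome X gave 5497. Leaving out 1 library at a time gave 5466 to 12721 regions, 10379 without E12.5 and 12721 without E13.5 sample 1. The median of the mean percentile of both E13.5 libraries, 22.6 in the set, was then 15.0 to 31.9 and 31.9 without E12.5. The share within 500 bp of a start, 1.01% in the set, was then 0.974% to 4.03%, with 4.03% without E12.5. The ETS share ranged from 6.12% to 7.66% and the SOX share from 2.93% to 4.59% over all settings, the WT1 share from 0.346% to 0.713% and the KLF/SP share from 0.560% to 1.78%.

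For shared regions against E12.5, the main count of 1010 calls (386 higher, 624 lower) became 1578 after quantile normalisation of log2 -log10 p (522 higher, 1056 lower). With ranks of fold it was 1401 (974 higher, 427 lower), so the balance of directions turned. Without 1 library it was 377 to 963, with 377 without E13.5 sample 2, 463 without E13.5 sample 1, and 634 to 647 without E11.5 replicate 2, E17.5 replicate 2 or E17.5 replicate 3. Against epicardium, 21687 calls became 15309 to 21971 without 1 library and 16777 with ranks of fold. With the replicate number as a replicate block, the calls were 431 against E12.5 and 20043 against epicardium. Same-numbered libraries deviated with correlations of -0.0787 to 0.0364, so the numbers were not taken to pair samples. The first Foxp1 promoter had an adjusted p of 0.0462 against epicardium and 0.146 with the block, and the first Auts2 promoter 0.0168 and 0.0567. The cause of these changes was not tested.

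The E12.5 group is 1 library, reads were not used here, so no common threshold was set, and an uncalled region is not a measured zero.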

Other observations

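Beyond the genes named above, a pair of regions was far stronger in sample 2 than in sample 1. A region 19.4 kb upstream of Chrm2, the muscarinic receptor gene of the heart, ranked at 5.83 with 16 fragments in sample 1 and at 56.0 with 99 fragments in sample 2. A region 55.7 kb upstream of Camk2d, a cardiac calcium kinase gene, ranked at 2.40 and 51.4. A region near Tcerg1l did the opposite, at 54.1 and 16.6, with 67.1% repeat sequence. They were chosen after their values were seen.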
